A study of Mus musculus with 6 samples.

Results

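BTZ and TNF-α were set against each other directly in growth medium in C2C12 cells, a mouse myoblast line that fuses into muscle fibres when serum is lowered. The comparison used 2 of the 6 arrays of the study, chosen by their labels: C2C12 in medium with 10% FBS (fetal bovine serum) and 10 nM BTZ for 24 h, and C2C12 in the same medium with 50 ng/ml TNF-α for 24 h. The labels name no genotype, clone or passage, and each group is 1 culture on 1 Affymetrix whole-transcript array. An array of untreated cells in the same medium took no part in the difference and is given only to show where its level lay. The remaining 3 arrays were cells moved to 2% differentiation medium and harvested on day 5, untreated or given BTZ or TNF-α at the same doses on day 4. Differences are log2 signal with BTZ minus log2 signal with TNF-α, so a positive value is a higher level with BTZ and 1 log2 unit is 2-fold. With 1 array per side the differences carry no error and no test, the number of arrays limits their precision, and whether the arrays stand for separate cultures of a repeated experiment is not given in the sources used here.

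BTZ is an abbreviation that the labels leave unexplained and that is commonly used for bortezomib, a drug that blocks the proteasome, the protease that degrades ubiquitin-tagged proteins. When proteasomes are blocked, unfolded proteins accumulate, heat shock factor HSF1 turns on chaperone genes, and the transcription factor NRF1 turns on the genes of the proteasome itself. TNF-α is an inflammatory cytokine whose receptor frees the transcription factor NF-kB from its inhibitor IκBα, and the inhibitor is removed by that same proteasome. Hspa1b, an inducible HSP70 chaperone, and Saa3, an acute-phase protein, are the markers of the 2 sides.

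The promoters of these markers and of genes from 2 groups described below are shown because each group is known for a DNA element. All are the 250 bases before the gene start from RefSeq, build GRCm38.p6, read 5′ to 3′ on the gene's strand, with the motif searched for in capitals. Hspa1b lies at chr17:34959239-34959488 on the minus strand and carries 1 heat shock element core, GAANNTTC or TTCNNGAA, at position -104 from the start.
Hspa1b: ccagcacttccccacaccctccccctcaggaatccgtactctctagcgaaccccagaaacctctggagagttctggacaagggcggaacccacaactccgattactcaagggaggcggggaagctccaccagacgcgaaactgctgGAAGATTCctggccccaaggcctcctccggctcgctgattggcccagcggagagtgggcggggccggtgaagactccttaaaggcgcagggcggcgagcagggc
The Saa3 window is chr7:46715677-46715926 on the minus strand, and the short NF-kB form, GGGA and CC separated by NNNN, is not in these letters on either strand.
Saa3: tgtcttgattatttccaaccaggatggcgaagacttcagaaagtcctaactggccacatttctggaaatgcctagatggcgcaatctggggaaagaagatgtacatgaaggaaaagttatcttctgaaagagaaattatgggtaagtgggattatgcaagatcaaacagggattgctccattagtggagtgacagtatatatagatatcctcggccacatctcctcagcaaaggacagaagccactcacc
The chemokine gene Cxcl1, at chr5:90890995-90891244 on the plus strand, and Nfkbia, which encodes IκBα, at chr12:55492648-55492897 on the minus strand, hold 3 and 2 matches of the NF-kB form, of which 2 in Cxcl1 overlap each other.
Cxcl1: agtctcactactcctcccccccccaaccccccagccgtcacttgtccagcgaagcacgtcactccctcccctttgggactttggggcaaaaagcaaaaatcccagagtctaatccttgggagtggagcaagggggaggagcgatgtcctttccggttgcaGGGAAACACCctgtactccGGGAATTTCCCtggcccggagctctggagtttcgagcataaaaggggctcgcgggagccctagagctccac
Nfkbia: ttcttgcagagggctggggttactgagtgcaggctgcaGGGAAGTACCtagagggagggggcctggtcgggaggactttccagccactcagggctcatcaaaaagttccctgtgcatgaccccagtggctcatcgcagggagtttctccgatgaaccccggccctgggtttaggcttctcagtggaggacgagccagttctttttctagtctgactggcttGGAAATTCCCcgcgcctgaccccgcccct
The mitotic kinase gene Cdk1, at chr10:69352913-69353162 on the minus strand, holds 2 matches of TTTGAA, the core of the cell cycle genes homology region, which silences mitotic genes in cells that are not dividing.
Cdk1: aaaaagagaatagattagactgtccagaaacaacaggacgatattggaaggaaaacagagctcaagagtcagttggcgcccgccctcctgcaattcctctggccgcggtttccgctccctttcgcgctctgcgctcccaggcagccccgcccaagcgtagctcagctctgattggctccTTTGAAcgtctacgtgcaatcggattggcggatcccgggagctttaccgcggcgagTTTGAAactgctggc

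Across lists, with both strands searched, the heat shock core was in 18 of 59 promoters of the heat shock genes (30.5%) in 12.8% of all 32851 promoters and in 9.96% of those of the genes used here. The NF-kB form was in 19 of 38 promoters of the chemokine and NF-kB genes (50%), 17.6% of all promoters and 22.6% of those of genes used. TTTGAA was in 13 of 38 promoters of mitotic genes (34.2%), 16% of all promoters and 10.5% of those of genes used. The NF-kB form was in as many of the mitotic promoters, 13 of 38, although that group is not known for it. TGACNNNGC, the antioxidant response element core that NRF1 and NRF2 read, was in 6 of 31 promoters of proteasome core and cap genes (19.4%), 10.2% of all promoters and 11.6% of those of genes used. It was in 7 of 29 promoters of NRF2 targets (24.1%) but also in 8 of 38 mitotic promoters (21.1%). The proteasome promoters held the NF-kB form more often than this core, in 8 of 31 (25.8%). Over the genes at least 2-fold higher with BTZ, 12% of promoters held the heat shock core, 20.8% the NF-kB form, 11.1% TTTGAA and 12% TGACNNNGC. Over those at least 2-fold lower, the shares in that order were 8.3%, 25%, 15% and 12.3%. A match of letters is not a site of binding, and no share was tested.

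Hspa1b was higher with BTZ and Saa3 with TNF-α. Hspa1b stood at 11.10 with BTZ and 8.29 with TNF-α, a difference of 2.82, and the untreated array read 8.17. Its neighbour Hspa1a read 7.58 and 6.33. The promoters of this pair are the same at 247 of 250 bases, and the genes are near-identical copies, so which of them gave the signal is uncertain. Saa3 stood at 4.59 with BTZ and 11.04 with TNF-α, a difference of -6.45, with 4.73 in untreated cells. Its BTZ level was under the floor of 5.06 (the median of all deposited values), where signals are close to background.

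In all, 12748 genes reached the floor on at least 1 of the 2 arrays. Of these, 576 were at least 2-fold higher with BTZ (4.52%) and 921 at least 2-fold lower (7.22%), so 38.5% of the genes past 2-fold were higher. The median of the BTZ array over all probe sets was 0.10 above that of the TNF-α array, and with the medians of both arrays made equal 414 genes were higher and 1116 lower, or 27.1% higher. The middle of the distribution was close: 70.5% of genes lay within 1.5-fold, and the median difference was 0.02. The far ends were unequal. At least 4-fold higher with BTZ were 48 genes and at least 4-fold lower 190, and past 8-fold there were 3 and 42. For 161 of the 1497 genes past 2-fold the lower array was under the floor, so background limits the size of those differences. Among 7637 probe sets above the floor with no gene named, the balance ran the other way, 13.1% higher with BTZ and 4.58% lower.

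**Figure D1:**
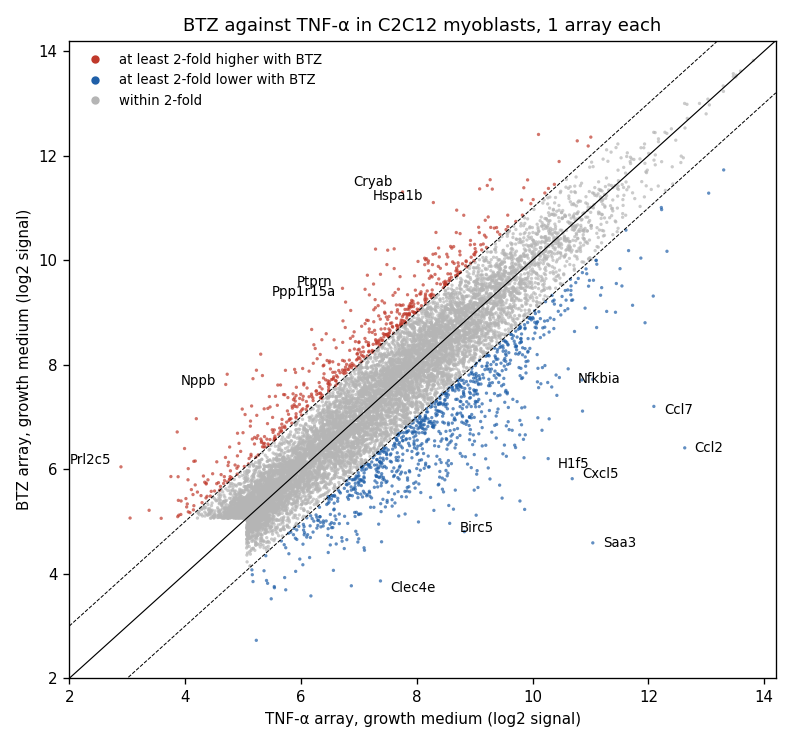
Log2 signal of each of 12748 genes on the TNF-α array (horizontal) and the BTZ array (vertical), both in growth medium, 1 array each; the solid line is equality and the dashed lines are 2-fold. The 921 genes below the lower line (blue) reach farther from equality than the 576 above the upper line (red), with Saa3 and Ccl2 farthest out.

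The 15 genes highest with BTZ were of mixed kind. Cryab, the small heat shock protein αB-crystallin, read 11.30 with BTZ and 7.75 with TNF-α, the largest difference upward at 3.55. Nppb, the B-type natriuretic peptide of strained heart muscle, read 7.62 and 4.70. Ptprn, a phosphatase-like protein of secretory vesicles, read 9.46 and 6.72, while Napb, which helps vesicles fuse, read 8.20 and 5.30. Enzymes of oxidation and haem breakdown were among them: Blvrb, a biliverdin reductase, at 9.71 and 7.15, and Aox1, an aldehyde oxidase, at 7.89 and 5.23. Mocos, which activates the molybdenum cofactor that aldehyde oxidase needs, read 7.73 and 5.17. Also in the group were Prl2c5, Prr9, Serpinb9e, Atp13a4, Car6, Zfp945 and Ifi202b, with differences between 2.61 and 3.15. In 5 of the 15 the TNF-α array was under the floor. Aox1 differed from the rest in its untreated level, 7.24, which lay nearer to BTZ than to TNF-α.

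The 15 genes lowest with BTZ held chemokines, growth factors and genes of dividing cells. Ccl2, which attracts monocytes, read 6.41 with BTZ and 12.63 with TNF-α, and its relative Ccl7 7.20 and 12.09. The neutrophil attractants Cxcl5 and Cxcl1 read 5.82 and 5.39 with BTZ against 10.68 and 9.78 with TNF-α. Ccl5 read 5.23 and 9.86. Of 5 chemokines in this group none was as high with BTZ as on the untreated array except Ccl5, whose untreated level was 5.04. Hgf, the hepatocyte growth factor that activates muscle stem cells, read 4.80 with BTZ, 8.82 with TNF-α and 9.28 untreated, so there the TNF-α culture lay close to the untreated one. Angptl4, an inhibitor of lipoprotein lipase, read 5.45 and 9.47. The linker histone H1f5, the histone H2bc12 and the survival and mitosis protein survivin (Birc5) differed by -4.07, -3.91 and -3.60. Vcam1 (an adhesion molecule), the death receptor Fas, the plasminogen activator inhibitor Serpinb2 and the lectin receptor Clec4e completed the group, between -3.75 and -3.51. For 4 of the 15, Saa3, Hgf, Birc5 and Clec4e, the BTZ array was under the floor, so background limits the size of those differences.

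**Figure D2:**
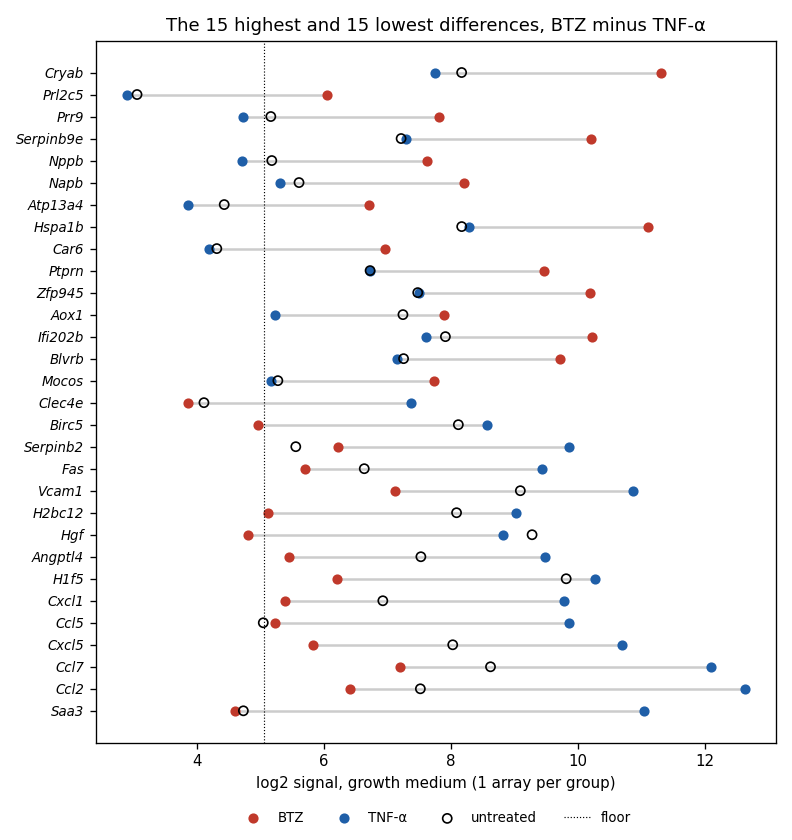
Log2 signal in growth medium of the 15 genes highest and 15 lowest in BTZ minus TNF-α, with 1 point per array: BTZ (red), TNF-α (blue) and untreated (open), and the floor as a dotted line. For most upper genes the untreated point lies by the TNF-α point, while for Ccl2, Ccl7, Cxcl5 and Cxcl1 it lies between the treated points.

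Chaperone genes were higher with BTZ, and unevenly so between families. Over the 4 heat shock lists 11 of 46 genes passed 2-fold upward and 1 downward, against 4.52% and 7.22% of all genes. The 11 include the marker Hspa1b and its near-identical copy Hspa1a, whose signals may not be separate. Of 11 HSP70 and HSP110 chaperones 3 were higher and 0 lower, with a median difference of 0.63. The 3 were Hspa1b, Hspa1a and Hsph1. Hsph1, an HSP110 that recharges HSP70, read 11.15 with BTZ and 9.81 with TNF-α, while Hspa12a, a distant HSP70 relative, read 5.95 and 6.83. Of 5 small heat shock proteins 3 were higher, among them Hspb8 at 10.17 and 8.74 and Hspb1 at 7.63 and 6.48, with Hspb6 at -0.64.

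Among 18 co-chaperones 4 were higher and 1 lower, beside 4.52% and 7.22% of all genes, with a median of 0.48. Dnaja4 read 8.20 with BTZ and 6.33 with TNF-α, Dnajb1 10.53 and 9.08, and Dnajb4 6.58 and 5.31; these J-domain proteins hand unfolded clients to HSP70. Fkbp4, an immunophilin that works with HSP90, was the member on the other side, at 8.89 and 9.94. The 12 genes of HSP90, the chaperonin and heat shock factors had a median of 0.05, which was -0.05 once array medians were made equal. Their only member past 2-fold was Hsf2, a heat shock factor, at 8.96 and 7.87, and its difference was 0.98 with equal medians. The chaperonin subunit Tcp1 differed by -0.33 and the mitochondrial chaperonin Hspd1 by 0.02.

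Genes in the lists of the proteasome core and cap leaned to the BTZ side with small differences, and the list of activators and assembly factors did not. Of 33 genes in the core and cap lists 31 were above 0, but only 2 past 2-fold. The median was 0.53 over the 13 alpha and beta subunits of the core and 0.69 over the 20 genes of the cap list, beside 0.02 over all genes. The cap list also holds assembly chaperones such as Psmd10, so the lists do not part subunits from assembly factors cleanly. Psmd4, the cap subunit that binds ubiquitin chains, read 10.26 with BTZ and 8.58 with TNF-α. Psmc4, an ATPase of the cap, read 10.74 and 9.71, a difference of 1.03 that was 0.93 with equal medians. The core subunit Psma5 differed by 0.95 as the mean of probe sets that gave 0.25 and 1.64, and its TNF-α level was under the floor. Psmd10, an assembly chaperone of the cap also called gankyrin, lay the other way, at -0.88. Among 9 genes listed with the activators and assembly factors 1 was higher and 1 lower, with 5 below 0. Their median was -0.19, and 0.30 with the floor at the 75th percentile. The activator Psme4 read 10.61 and 9.34, whereas the assembly chaperone Psmg1 differed by -1.16.

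Genes of the immunoproteasome and of MHC class I presentation did not share a side, with 7 of 14 above 0 and 7 below. Psmb10, a catalytic subunit that replaces its constitutive partner in inflamed cells, read 6.18 with BTZ and 8.40 with TNF-α. Erap1, which trims peptides for MHC class I, read 6.38 and 8.52, and Tapbpl, a peptide editor, 6.09 and 7.10. These were the 3 of 14 members at least 2-fold lower with BTZ, with 0 higher, beside 7.22% and 4.52% of all genes. Psmb10 is the only proteasome subunit among them. Another immune catalytic subunit, Psmb8, differed by 0.15 and the activator subunit Psme2 by 0.12, both named after their values were seen. The class I heavy chain H2-K1 missed 2-fold, at 7.06 and 8.04. The median of the list was 0.00 and -0.10 with equal medians, so it had no stable direction.

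The integrated stress response, in which kinases slow translation and the factor ATF4 turns on repair genes, divided within itself. Of 26 genes 10 were at least 2-fold higher with BTZ and 1 lower, beside 4.52% and 7.22% of all genes. Their median was 0.38. Ppp1r15a, the phosphatase subunit that ends the response, read 9.20 with BTZ and 6.77 with TNF-α. Aldh1l2, a mitochondrial folate enzyme, read 9.68 and 7.71, and the transcription factors Ddit3 (CHOP) and Atf3 read 9.09 and 9.13 against 7.29 and 7.33. Phgdh, the first enzyme of serine synthesis, was the member lower with BTZ (chosen after its value was seen), at 7.25 and 8.40, and Cebpg was nearest to equality at 0.01. Chaperones and degradation factors of the endoplasmic reticulum were 0 of 17 past 2-fold in either direction (median 0.27), with the chaperone Hspa5 (BiP) at 0.95 and the stress sensor Ern1 at 0.94.

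Antioxidant, p53 and autophagy genes were also higher with BTZ in part, beside 4.52% of all genes higher and 7.22% lower. Of 21 targets of NRF2, the regulator of antioxidant defence, 6 were higher and 0 lower (median 0.50). Blvrb led them, followed by Osgin1 at 8.84 and 6.73, Srxn1, which repairs peroxiredoxins, at 10.23 and 8.38, and haem oxygenase Hmox1 at 10.83 and 9.23. Of 27 p53 targets and apoptosis genes 7 were higher and 1 lower (median 0.51). Trp53inp1 read 8.38 with BTZ and 6.22 with TNF-α, the kinase Plk3 10.03 and 8.17, and the receptor Eda2r 8.03 and 6.21. The exception was Fas, at 5.69 and 9.43, which is a target of NF-kB as well as of p53.

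Of 34 genes of autophagy and muscle wasting 10 were higher with BTZ and 1 lower (median 0.46), beside 4.52% and 7.22% of all genes. Those higher included Gabarapl1, which builds the autophagosome membrane, at 9.99 and 8.20, the cargo receptor Nbr1 at 10.06 and 8.39, and Ufd1, which feeds ubiquitinated proteins to the proteasome, at 10.23 and 8.60. The one lower was Fbxo32, the muscle-wasting ligase atrogin-1, at 7.25 with BTZ and 9.01 with TNF-α. In untreated cells it read 7.53, close to the BTZ level. Of the 34 genes 28 were above 0, and the autophagy gene Atg5 was nearest to equality, at -0.01.

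Inflammatory genes lay mostly on the TNF-α side. Over 5 inflammatory lists, 45 of 83 genes were at least 2-fold lower with BTZ and 1 higher, against 7.22% and 4.52% of all genes. The 83 include the marker Saa3 and other genes that reached the floor by their TNF-α level alone, which favours the TNF-α side. With both arrays at or above the floor the medians were -0.81 for NF-kB genes, -1.79 for chemokines and -0.91 for cytokines. They were -0.64 for inflammatory enzymes, proteases and adhesion molecules and -0.11 for acute-phase and complement genes. Of 19 NF-kB subunits, inhibitors and regulators 10 were lower and 0 higher, with a median of -1.03. Nfkbia read 7.92 with BTZ, 10.61 with TNF-α and 8.24 untreated, and Nfkbie, another IκB protein, 5.83 with BTZ and 8.44 with TNF-α. Tnfaip3 (A20), which shuts the pathway off, read 6.68, 8.92 and 6.32, and Tnip3 4.70, 6.53 and 4.58. In these 4 the BTZ level lay within 2-fold of the untreated level, and for Tnip3 both were under the floor. The adaptor Traf2 was nearest to equality, at -0.01.

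Chemokines had a median of -1.79 over 15 genes, with 10 lower and 0 higher, beside 7.22% and 4.52% of all genes. A further 6 members were under the floor on both arrays. Of 17 cytokine genes 9 were lower and 1 higher. Il13ra1, a receptor chain for IL-13, read 6.66 with BTZ and 9.78 with TNF-α, and Csf1, the macrophage growth factor, 9.33 and 11.17. Il1rn, the antagonist of the IL-1 receptor, was the one higher, at 7.61 with BTZ, 5.65 with TNF-α and 6.93 untreated. Among 9 acute-phase and complement genes 5 were lower. Ptx3, a soluble pattern receptor, read 5.27 and 7.26, and Serping1, the C1 inhibitor, read 3.69, under the floor, and 5.74. That list depended on the floor: over all its 19 measured members the median was -0.11, since 10 were under the floor.

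Of 23 inflammatory enzymes, proteases and adhesion molecules 11 were lower with BTZ and 0 higher, beside 7.22% and 4.52% of all genes. Vcam1 read 7.11 with BTZ, 10.86 with TNF-α and 9.09 untreated. Serpinb2 read 6.22 and 9.85, and Clec4e 3.86 and 7.37, with its BTZ level under the floor. Ch25h, which makes an antiviral oxysterol, differed by -3.25 as the mean of probe sets at -4.93 and -1.57. The adaptor Myd88 differed by 0.04. Interferon-stimulated genes did not separate, with 1 of 13 lower (Ifit2, at -1.70) and 0 higher, and 14 measured members under the floor.

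Genes of cell division were lower with BTZ. In the mitotic list 43 of 43 genes were at least 2-fold lower, beside 7.22% of all genes. Their differences ran from -3.60 to -1.22 with a median of -2.46. For all 43 the untreated level lay within 2-fold of the TNF-α level and not of the BTZ level. The kinetochore gene Nuf2 read 6.96 with BTZ, 10.29 with TNF-α and 10.26 untreated, and cyclin A (Ccna2) 7.72, 11.04 and 10.87. Kif11, the motor that separates spindle poles, read 6.57, 9.84 and 9.70. Cdk1, outside the naming rule and given because its promoter is shown above, read 7.56 with BTZ, 10.10 with TNF-α and 9.72 untreated.

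DNA replication was lower to a smaller extent, with 25 of 39 genes at least 2-fold lower, beside 7.22% of all genes. The median was -1.21. Thymidine kinase (Tk1) read 6.41 with BTZ and 9.71 with TNF-α, the repressor E2f8 5.92 and 8.54, and Uhrf1, which copies DNA methylation, 6.24 and 8.84. E2f1, the activator of this programme, read 7.69 and 7.70. All 6 members of the replication-dependent histone list that reached the floor were lower (median -2.60). Of these H1f1 and H4c9 reached it by their TNF-α level alone, at 3.58 and 4.90 with BTZ, which favours that side. The measured members under the floor on both arrays, H4c1, H4c2 and H2bc21, were within 2-fold. With no floor the median was -1.89. The list had 9 members measured, with most listed names not matched to a single probe set. H2bc12, named above, is outside that list, so these counts do not cover all such histones on the array. Of 10 cell cycle inhibitors 3 were lower, Rbl1, Cdkn2d and Cdkn2c, at -1.96, -1.81 and -1.19. Cdkn1a (p21), which p53 induces, differed by 0.71. Fewer dividing cells and less of these RNAs per cell cannot be told apart in bulk RNA.

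Growth factors and matrix genes lay mostly on the TNF-α side, beside 7.22% of all genes at least 2-fold lower with BTZ and 4.52% higher. Of 26 secreted growth factors and binding proteins 9 were lower with BTZ and 1 higher (median -0.64). Fgf7, a growth factor for epithelia, read 5.65 with BTZ, 9.06 with TNF-α and 7.71 untreated, and Igfbp2 7.28, 9.52 and 9.38. Among 25 collagens and collagen enzymes 9 were lower and 2 higher. Their median was only -0.28, with 9 above 0 and 16 below. The fibrillar chain Col1a2 read 5.90 with BTZ, 9.03 with TNF-α and 9.97 untreated, Col8a1 5.21, 8.30 and 8.08, and Lox, which cross-links collagen, 9.14, 11.73 and 12.01. The 2 higher were the collagen hydroxylases Plod1 at 1.19 and P4ha2 at 1.06, both named after their values were seen.

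Among 24 matrix glycoproteins and proteoglycans 8 were lower and 1 higher (median -0.60), beside 7.22% and 4.52% of all genes. Thrombospondin (Thbs1) read 8.80 with BTZ and 11.94 with TNF-α, periostin (Postn) 7.18 and 9.58, and versican (Vcan) 7.47 and 9.56. The basement membrane protein Nid1 is not among the 4 largest, and was singled out after its value was seen as the member higher with BTZ, at 12.35 and 11.01. Of 14 matrix proteases and inhibitors 5 were lower and 2 higher. Their median was -0.37, and -0.01 with both arrays at or above the floor. Those higher were Timp3, an inhibitor of matrix proteases, at 11.43 against 9.22 and Mmp19 at 7.85 against 5.91. Among those lower, Mmp13 read 4.95 with BTZ, under the floor, and 6.50 with TNF-α. The cartilage protease Adamts5 read 5.35 with BTZ, 7.62 with TNF-α and 8.95 untreated, so both treated arrays lay under the untreated one.

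Cholesterol genes had a median of -0.66 over 16 genes. Of these 3 were at least 2-fold lower with BTZ and 0 higher, beside 7.22% and 4.52% of all genes. Hmgcs1, an early enzyme of the pathway, read 8.70 with BTZ, 10.18 with TNF-α and 11.31 untreated. Fdft1, which makes squalene, differed by -1.17 and Dhcr7, the last step, by -1.07, while Lss was equal at 0.00. In glycolysis 4 of 17 genes were lower and 0 higher, led by the muscle enolase Eno3 at -2.43, with lactate dehydrogenase Ldha at -1.84. Respiratory chain genes were 0 of 27 past 2-fold (median -0.29), and ribosomal protein genes 0 of 28 (median -0.08).

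Muscle identity genes were measured in both cultures. All 10 myoblast markers reached the floor. Of these 4 were at least 2-fold lower with BTZ and 0 higher, beside 7.22% and 4.52% of all genes: Vcam1, Myf5, Cdh2 and Itga7. Itga7 read 8.88 with BTZ, 10.01 with TNF-α and 9.01 untreated, so there the untreated level lay by BTZ. For Vcam1 the untreated level, 9.09, lay between the treated ones. Those of Myf5 and Cdh2, 8.78 and 9.91, lay by TNF-α. Myf5, a factor that commits cells to muscle, read 6.94 with BTZ and 8.67 with TNF-α, whereas Pax7, the satellite cell factor, read 6.75 and 6.74. The adhesion proteins Jam2 and Cdh2 differed by -1.37 and -1.15. Sarcomere genes had 1 of 24 higher and 1 lower, and 16 more were under the floor. Cardiac troponin T (Tnnt2) read 7.98 and 10.21, and the slow troponin C (Tnnc1) 7.42 and 5.72. Of 52 markers listed for macrophages, lymphocytes, endothelium, adipocytes and neural cells, 12 reached the floor and 0 of them was past 2-fold in either direction.

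Immediate early genes lay on both sides, 5 of 28 higher with BTZ and 6 lower, beside 4.52% and 7.22% of all genes. Their median was -0.06. Mafk, a partner of NRF2, read 9.24 with BTZ and 7.28 with TNF-α, and the phosphatase Dusp4 9.91 and 8.14. Nr4a2 and Klf10 lay the other way, at -1.90 and -1.70. Of 12 small nucleolar RNA host genes 1 was higher and 0 lower (median -0.09), Snhg12 at 9.84 and 7.61. Zfas1 in that list, singled out after its values were seen, had a difference of 0.05 as the mean of probe sets at -1.49 and 1.58, which give no common direction. Of 5 metallothionein and zinc genes 1 was lower and 0 higher (median -0.43): the zinc importer Slc39a10 read 6.67 with BTZ and 8.62 with TNF-α, while the metallothionein Mt2 read 11.46 and 12.42.

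The remaining lists had more members lower than higher with BTZ or none past 2-fold, beside 7.22% of all genes lower and 4.52% higher. TNF receptors and death genes had 2 of 17 lower and 0 higher (median -0.15), and Id and Notch genes 2 of 18 lower (median -0.18), the ligand Jag2 at -1.74 and the repressor Hes1 at -1.32. Myogenic regulators and fusion genes had 4 of 17 lower and 0 higher (median -0.27). Actin genes of growing mesenchymal cells had 1 of 12 lower (median -0.42). Of 15 tubulin and cytoskeleton genes 4 were lower (median -0.60), among them the neurofilament Nefl at -3.10 and the tubulin Tuba1b at -2.67. The BTZ level of Nefl, 3.77, was under the floor. Of 7 carbonic anhydrases Car6 was higher and 2 were lower, with Car8 at -2.49. Housekeeping genes had 0 of 11 past 2-fold (median -0.28).

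**Figure D3:**
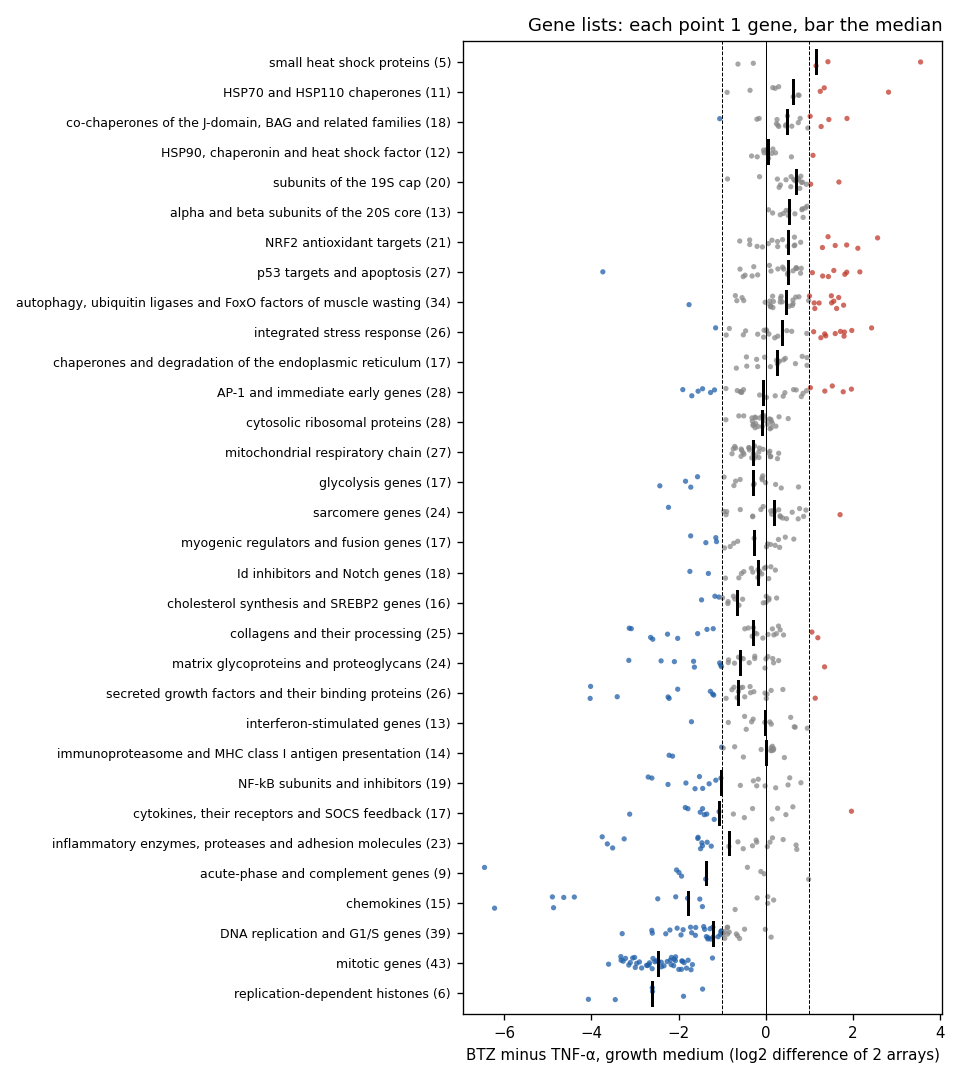
BTZ minus TNF-α in growth medium (log2 difference of 2 arrays) for each gene above the floor in 32 lists, with the number of genes in brackets, the median as a bar and dashed lines at 2-fold; red is at least 2-fold higher with BTZ and blue at least 2-fold lower. All mitotic genes lie to the left of the lower line, most proteasome genes sit just to the right of 0, and the chemokines spread from 0.18 to -6.22.

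The untreated array shows which side of a gap stood apart, as a description. Of the 576 genes higher with BTZ, the untreated level lay within 2-fold of TNF-α only for 394 (68.4%) and of BTZ only for 14 (2.43%), and within 2-fold of both for 164. Of the 921 genes lower with BTZ, 530 (57.5%) lay by TNF-α only, 68 (7.38%) by BTZ only and 278 by both. The lists differed in this: 9 of the 10 NF-kB genes lower with BTZ had an untreated level by BTZ only, whereas all 43 mitotic genes had it by TNF-α only. For 22 of the lower genes the untreated level stood between the treated ones and at least 2-fold from each. Among them Ccl2 read 7.52 untreated, Ccl7 8.62, Cxcl5 8.03 and Cxcl1 6.92, at least 2-fold above the BTZ level in each case. Vcam1, Angptl4 and Fgf7 were also in that group. Of the genes higher with BTZ, 0 had an untreated level between the treated ones at 2-fold from each.

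The same contrast was measured a second time in differentiation medium, on 2 other arrays, so the pairs share no array but differ in medium, cell state and length of culture. There 705 of 12879 genes (5.47%) were at least 2-fold higher with BTZ and 1295 (10.1%) lower. Of 12279 genes used in both pairs, 262 were higher in both, which is 47.4% of the 553 higher in growth medium and 38.3% of the 684 higher in differentiation medium. Lower in both were 512, or 57.4% of 892 and 43.5% of 1178. Of the genes higher in growth medium 90.2% were above 0 in differentiation medium, where 51.1% of all genes were, and of those lower 94.7% were below 0, against 48.9%. As a description over these genes, which do not vary independently, the correlation was 0.65 (Pearson) and 0.57 (Spearman). Of the 15 highest and 15 lowest genes 14 each were past 2-fold the same way; the exceptions were Prl2c5, at 0.13, and Serpinb2, at 0.57 and so on the other side of 0.

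The lists are set side by side here for the 2 media, and no gap between them was tested. NF-kB genes had medians of -1.03 over 19 genes in growth medium and -0.99 over 20 in differentiation medium. The genes above the floor were not the same in both media for several lists. Chemokines had -1.79 over 15 genes and -3.42 over 18, and interferon-stimulated genes -0.02 over 13 and -1.36 over 20. Acute-phase and complement genes had -1.38 over 9 and -2.77 over 12, and the former was -0.11 with no floor. Proteasome cap genes stood at 0.69 and 1.26, HSP90 and chaperonin genes at 0.05 and 0.90, and NRF2 targets at 0.50 and 1.67. Mitotic genes stood at -2.46 and -1.80. The sarcomere list stood at 0.19 over 24 genes in growth medium and -2.07 over 35 in differentiation medium.

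**Figure D4:**
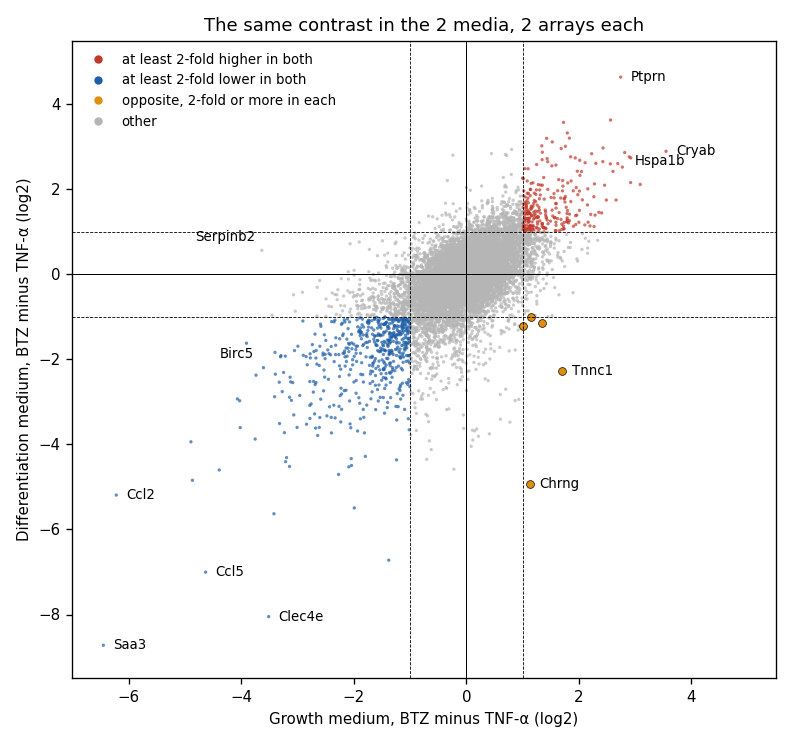
BTZ minus TNF-α (log2) in growth medium (horizontal) and in differentiation medium (vertical) for the 12279 genes above the floor in both pairs, 1 array per group; dashed lines are 2-fold. The 262 red and 512 blue genes were past 2-fold the same way in both media, and 5 orange genes, Chrng and Tnnc1 among them, were higher with BTZ in growth medium and lower in differentiation medium.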

How the data were processed

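Per the labels' protocols, total RNA was extracted with TRIzol, purified, amplified and end-labelled with biotin for Affymetrix whole-transcript arrays. The authors deposited 1 value per probe set and array, taken as log2 signals from their range. How probes were summarized and arrays normalized is not given in the sources used here. Of 41345 probe sets 23521 named 1 gene symbol, 1814 several and 16010 were not in the annotation. The Entrez number of 23328 was in the RefSeq table and 0 symbols differed. Probe sets of 1 gene were averaged (22180 genes). A gene was used where its higher array of the pair reached the floor, the median of all values (5.06). No scaling was applied, and no test was made with 1 array per group. The step that counts differences was tested on simulated data. The members and lists were chosen with earlier results of these data known. Named genes were the 15 highest and 15 lowest, without predicted genes, small RNAs or olfactory, vomeronasal and immunoglobulin families, with Hspa1b and Saa3, up to 4 members of each of 49 lists with the largest difference and the one nearest 0, and genes opposite in the 2 media. Members of a list with no single-symbol probe set were not analysed here. Alternatives were other scalings, floors and probe set rules. Calculations used Python 3.11.15, pandas 2.3.3 and numpy 2.4.6.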

Additional observations from a re-analysis of the deposited data

Results flagged for a closer look

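Genes that were at least 2-fold higher with BTZ in growth medium and at least 2-fold lower with BTZ in differentiation medium were singled out because the differences in the 2 media had opposite signs; with 1 array per group this difference was not tested. There were 5, and 0 with the reverse pattern. Chrng, the fetal acetylcholine receptor subunit, differed by 1.13 in growth medium, where it was near the floor, and by -4.93 in differentiation medium, a gap of -6.06. Tnnc1 differed by 1.70 and -2.28, a gap of -3.99. Hsd17b11, an enzyme of lipid droplets, differed by 1.34 and -1.15, a gap of -2.50. Calcoco1 differed by 1.01 and -1.22, a gap of -2.23, and its growth medium value was 0.91 with equal array medians. Casp1, the inflammatory caspase, differed by 1.15 and -1.01, a gap of -2.16.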

How the results depend on the processing

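No paired analysis was possible because each group holds 1 array, so no replicate could be left out or blocked either. Under 8 alternatives the number of genes higher with BTZ ran from 414 to 638 and the number lower from 798 to 1116, all within 1.5 times of 576 and 921. Of 135 named genes past 2-fold 3 were within it with equal array medians (Hsf2, Psmc4 and Calcoco1) and 0 changed sign. List medians that moved by 1.5-fold or more did so with the floor, by its construction, since other members enter. For acute-phase and complement genes the median was -0.11 with no floor or with both arrays above it, and -0.53 with the floor on all 6 arrays. For histones it was -1.89 with no floor. With the floor at the 75th percentile it was -0.61 for immunoproteasome and MHC genes, -4.39 for chemokines and -0.90 for sarcomere genes, against 0.19 as reported. Taking the probe set with the highest mean moved Psma5 to 1.64, Ch25h to -4.93, Ccn2 to -2.49 and Rpl3 to -0.04.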

Other observations

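Some genes stood far from the untreated array with both treatments and close to each other, so the direct comparison does not show them. There were 69 at least 2-fold below the untreated level with both treatments and within 2-fold of each other, and 11 above. They were named after their values were seen. Car3, a carbonic anhydrase of muscle, read 5.51 with BTZ, 5.62 with TNF-α and 10.51 untreated. The chemokine receptor Cxcr4 read 6.95, 7.19 and 8.79, the collagen VI chain Col6a1 6.92, 6.98 and 8.50, and the growth factor Igf1 4.85, 5.20 and 6.59. Above the untreated level were the inflammatory caspase Casp4, at 7.66 with BTZ and 5.67 untreated, and the stress gene Ier3, at 11.87, 11.02 and 9.61. All of these values share 1 untreated array.

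Of the genes past 2-fold between BTZ and TNF-α, 27 had both treated arrays at least 2-fold from the untreated one on the same side. Among them the cystine transporter Slc7a11 read 6.59 with BTZ, 5.24 with TNF-α and 3.99 untreated. Il6 read 4.98, 6.34 and 3.75, and the angiogenic factor Vegfc 7.83, 9.02 and 6.75. In these the order of the treatments differed, with BTZ higher for Slc7a11 and TNF-α higher for Il6 and Vegfc. The untreated levels of Slc7a11 and Il6 and the BTZ level of Il6 were under the floor, so background limits those distances. Most of the 27 lay on the other side, below the untreated level with both treatments. Col3a1, for example, read 7.15 with BTZ, 9.40 with TNF-α and 10.73 untreated. The share of genes past 2-fold was 5.18% among the 3187 genes of lowest mean level and between 12.4% and 15.6% in the other 3 groups of that size.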
